A study of Mus musculus with 24 samples.

Results

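The activator protein 1 (AP-1) family was described here in cell lines from 2 mouse models of tumour dormancy, the persistence of cancer cells that do not grow out. The members were chosen by gene name with no cut on a measured value, but with earlier results of these data known. They are *Jun*, *Junb*, *Jund*, *Fos*, *Fosb*, *Fosl1*, *Fosl2*, *Batf*, *Batf3* and *Atf3*, 10 of the 22911 gene symbols on the array. RNA was measured on 24 one-colour Agilent mouse arrays, of which 23 were used. B16-D replicate 2 was left out because 90.3% of its spots lay well above background, against 46% to 55.8% on the other arrays.

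All melanoma lines carry the GFP-marked B16-F1 background, a pigmented mouse melanoma line. B16-M (3 arrays) is the parental line, and B16-D (4 arrays, 3 used) holds dormant cells recovered from mice given immunotherapy. B16-D-733 (4 arrays), B16-D-735 (3) and B16-D-739 (3) are lines of dormant cells named after their titles, taken here as the second generation recovered from a brain site. The leukemia lines are M0-p20 (4 arrays), taken here as the parental myeloid line DA1-3b, and J365-p20 (3 arrays), taken as its late dormant derivative DA1-3b/D365. Age, sex and mouse of origin are not given in the sources used here. The dormant cells were amplified in culture after isolation, so the arrays measured cultured cells and not cells inside the animal. Nothing in the labels says that arrays of one line came from separate cultures, so the p-values measure the spread between arrays, which may be technical. The titles of B16-D-733 replicates 1 and 3 give the same number, and both arrays lie on slide 3. Over the 17772 features above background on every melanoma array used, their difference had an SD of 0.195 on the log2 scale, against 0.293 to 0.624 for the other pairs of arrays of that line. Taken as 1 replicate, a setting added after the data had been seen, they left the members called in the 4 comparisons between that line and the other melanoma lines at 2 against B16-M, 1 against B16-D, 1 against B16-D-735 and 0 against B16-D-739. The titles of 2 of the 3 B16-D arrays used and of 3 of the 4 B16-D-733 arrays also carry a date, and those of the other arrays used do not.

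AP-1 is a dimer of basic leucine zipper (bZIP) proteins. Jun proteins pair with each other or with Fos proteins, and the pair binds short DNA sites to switch genes on or off. Batf and Batf3 lack the activating part of Fos, pair with Jun proteins and are best known from lymphocytes and dendritic cells, while Atf3 is made under stress and often represses. In melanoma and in myeloid cells, AP-1 is known for its part in growth, invasion and differentiation.

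The lines carried the markers of their labels. All 8 melanocytic markers lay above background on every melanoma array, and all 8 hematopoietic markers did so on every leukemia array. Of the 8 melanocytic markers, 3 also lay above background on every array of each leukemia line. *Tyrp1*, *Dct*, *Mlana* and *Slc45a2* did so on no leukemia array. Of the hematopoietic markers, *Was* lay above background on every array of each melanoma line and *Coro1a* on every array of each but B16-D. *Spi1* did so on some but not all arrays of B16-M, and *Cd53* on some but not all of B16-D-733. Neither did so on any array used of the other melanoma lines. *Ptprc*, *Laptm5*, *Vav1* and *Lcp2* did so on no melanoma array used. Markers of cells that a recovered tumour could hold were read the same way. Above background on every array of a melanoma line were 0 or 1 of 6 endothelial markers (*Pecam1*), 5 or 6 of 8 neural and glial ones, 2 or 3 of 7 of microglia and macrophages, 3 of 7 of T and NK cells, and 3 to 5 of 8 fibroblast ones. Of these lists *Cdh5*, *Kdr*, *Tek* and *Emcn* (endothelial), *Rbfox3* and *Syt1* (neural), *P2ry12*, *Adgre1* and *Mrc1* (microglia and macrophage) and *Cd8a*, *Nkg7*, *Klrb1c* and *Gzmb* (T and NK cells) were above background on no melanoma array used. Bulk RNA cannot tell fewer cells of a type from less RNA per cell.

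Promoter sequence was at hand for 9 of the 10 members in the RefSeq table for build GRCm38.p6, which holds 250 bases before and 50 bases after each gene's start. *Batf* and *Batf3* are shown because their RNA differed between the melanoma lines, and *Fos* and *Atf3* because each is the near neighbour of one of them. The windows are chr12:85686470-85686769 on the plus strand for *Batf*, chr1:191098164-191098463 on the plus strand for *Batf3*, chr12:85473640-85473939 on the plus strand for *Fos* and chr1:191183284-191183583 on the minus strand for *Atf3*. Each is written 5′ to 3′ along its gene, and capitals mark the motifs below and, in *Batf* and *Batf3*, 2 stretches that both windows hold.
Batf: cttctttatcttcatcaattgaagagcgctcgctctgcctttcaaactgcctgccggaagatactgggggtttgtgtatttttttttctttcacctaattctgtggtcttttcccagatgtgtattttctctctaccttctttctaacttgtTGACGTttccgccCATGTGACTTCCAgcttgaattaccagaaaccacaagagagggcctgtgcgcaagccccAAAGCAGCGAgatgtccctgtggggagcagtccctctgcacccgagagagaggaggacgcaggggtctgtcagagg
Batf3: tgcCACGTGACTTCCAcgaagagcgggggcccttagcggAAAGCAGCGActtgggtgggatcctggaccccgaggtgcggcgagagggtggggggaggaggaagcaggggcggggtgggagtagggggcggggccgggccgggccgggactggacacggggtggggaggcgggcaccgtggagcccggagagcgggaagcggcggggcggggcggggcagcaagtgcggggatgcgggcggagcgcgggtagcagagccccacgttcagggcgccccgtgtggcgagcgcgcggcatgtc
Fos: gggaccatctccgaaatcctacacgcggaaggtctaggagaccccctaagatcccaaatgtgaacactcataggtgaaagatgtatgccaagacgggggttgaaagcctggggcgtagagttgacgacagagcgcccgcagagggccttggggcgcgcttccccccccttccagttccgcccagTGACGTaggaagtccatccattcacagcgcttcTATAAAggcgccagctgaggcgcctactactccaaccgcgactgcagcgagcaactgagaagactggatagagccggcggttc
Atf3: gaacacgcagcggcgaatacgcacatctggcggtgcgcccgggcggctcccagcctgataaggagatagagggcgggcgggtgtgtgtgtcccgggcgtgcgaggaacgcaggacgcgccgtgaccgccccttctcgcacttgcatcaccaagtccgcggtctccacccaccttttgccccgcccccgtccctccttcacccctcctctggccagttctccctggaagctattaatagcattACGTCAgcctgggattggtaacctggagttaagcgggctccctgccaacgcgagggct

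Both strands of the windows were searched for the AP-1 site TGANTCA, the cyclic AMP element TGACGTCA, its shorter form TGACGT, which the longer one contains, the E-boxes CACGTG and CATGTG, and the TATA box TATAAA. The AP-1 site was found in no member's window and in 7.81% of the 32851 promoters of the table, and the full cyclic AMP element in no member's window and in 1.79% of all. TGACGT stood at -66 from the start of *Fos*, at -98 in *Batf* and, on the opposite strand, at -8 in *Atf3*, and in 7.51% of all promoters. CACGTG began at -247 in *Batf3* (7.15% of all promoters) and CATGTG at -85 in *Batf* (14.2%), where it overlaps the first of the shared stretches. TATAAA stood at -33 in *Fos* and at 1 in *Junb* (13.6% of all promoters).

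The longest stretches that the *Batf* and *Batf3* windows share are 10 bases long. GTGACTTCCA began at -82 in *Batf* and at -244 in *Batf3* and was found in 33 of the 32851 promoters (0.1%). AAAGCAGCGA began at -26 and at -211 and was found in 21 promoters (0.0639%). These matches describe letters and not binding. In the RefSeq gene order, *Jdp2* is the only protein-coding gene between *Fos* and *Batf* on chromosome 12, and *Fam71a* the only one between *Batf3* and *Atf3* on chromosome 1.

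Levels are given as log2 of the signal over the 75th percentile of the array, so that 0 is the level of the probe at that percentile. Since each probe has its own brightness, levels were compared between lines and never between genes. *Fosl1* was above background on no melanoma array used, and the other 9 members were above background on all of them. In the leukemia lines, *Batf3* and *Atf3* were above background on no array and the other 8 members on every array. Above background means the scanner's mark for well above background throughout, read from the brightest probe of a gene. The second *Fosb* probe was above background on no array used, and the second *Fosl2* probe on no melanoma array used. The second *Junb* probe was above background on 2 of 3 B16-M arrays, 1 of 3 B16-D-735 arrays and none used of the other melanoma lines. By the scanner's weaker mark, positive and significant, *Batf3* was detected on 3 of 4 M0-p20 and 3 of 3 J365-p20 arrays, and *Atf3* on none. By that mark *Fosl1* was detected on 2 of 3 B16-M arrays and none of B16-D. It was detected on 1 of 4 in B16-D-733 and 1 of 3 each in B16-D-735 and B16-D-739.

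**Figure D1:**
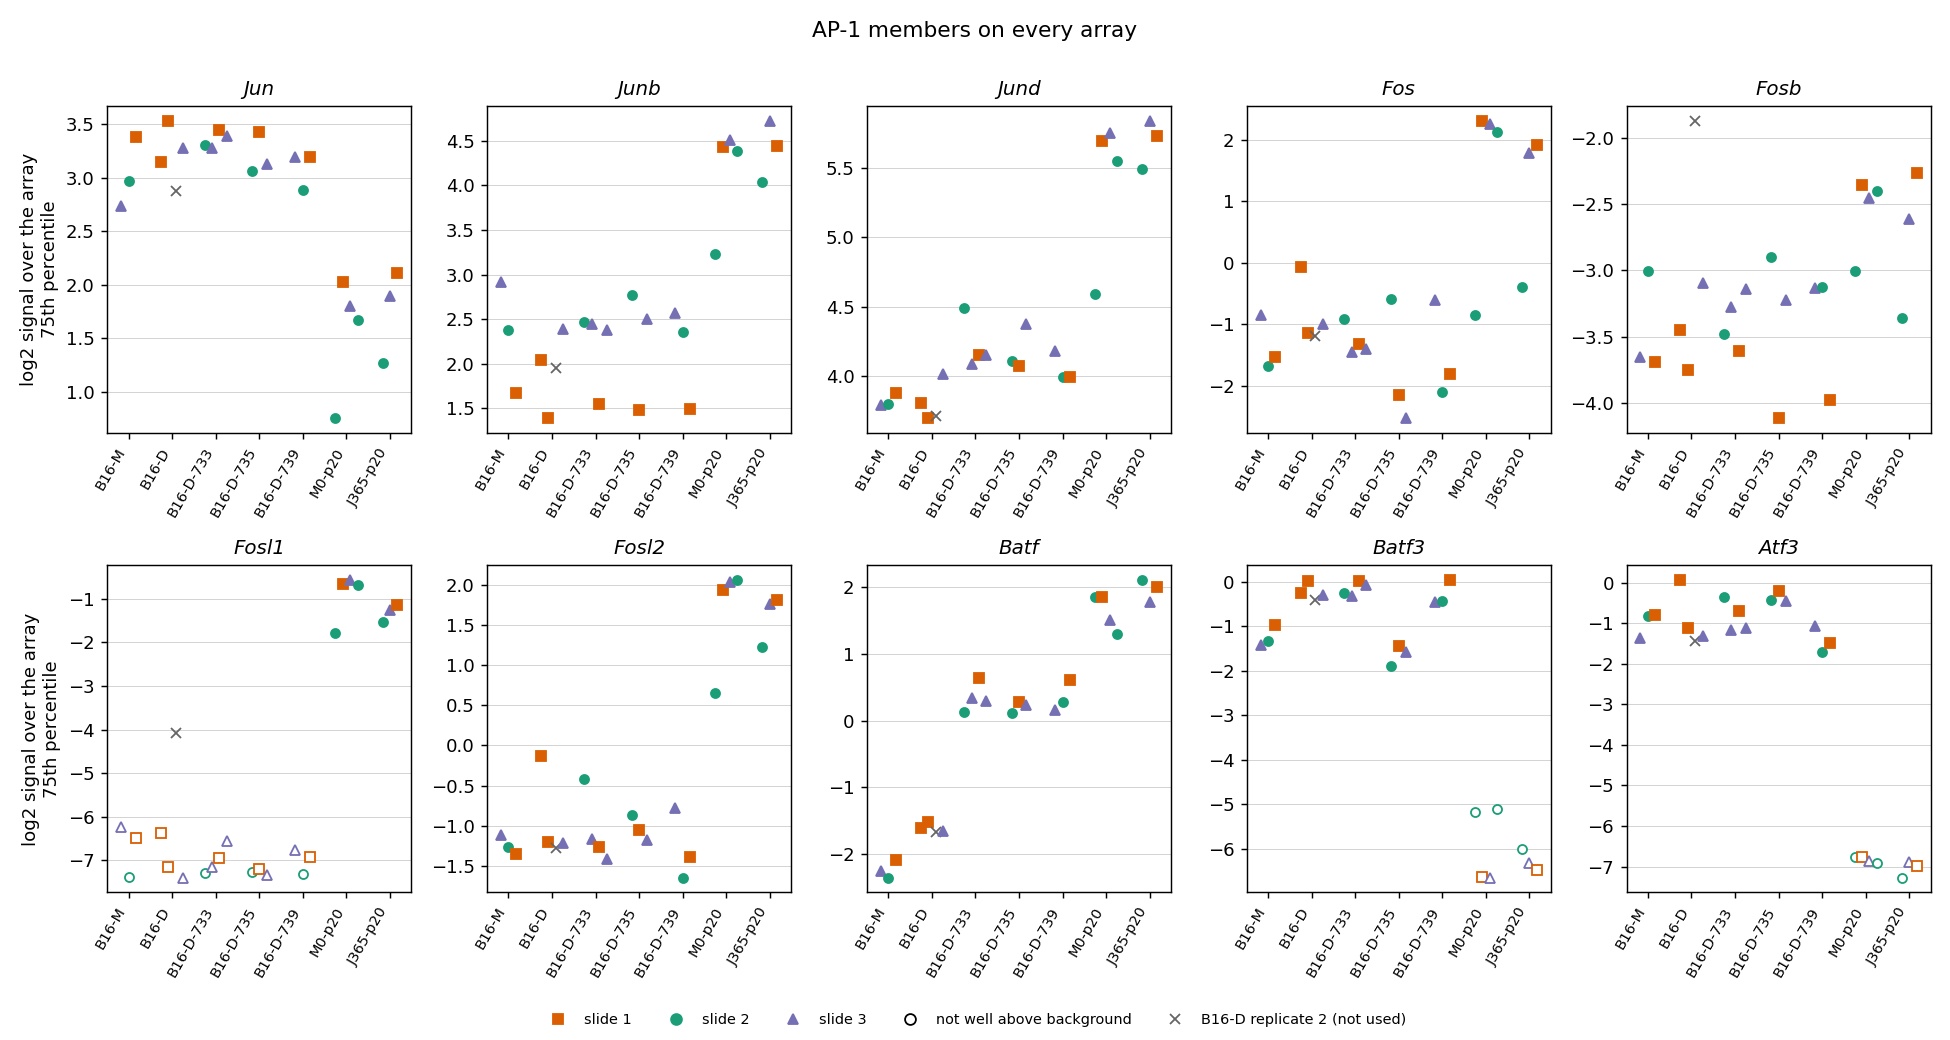
Level of each of the 10 members (log2 signal over the array's 75th percentile) on every array, by line. The shape and colour give the slide, open symbols are not well above background and crosses are the B16-D array left out. *Batf* lies lowest in B16-M, next in B16-D and highest among melanoma lines in the 3 numbered ones, *Batf3* is high in B16-D, B16-D-733 and B16-D-739, and *Fosl1*, *Batf3* and *Atf3* are each above background in only 1 of the models.

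The first question was which members differ between parental and dormant melanoma lines. *Batf* rose in all 4 dormant lines and *Batf3* in 3 of them, and no other member passed the test against B16-M in any dormant line. The 4 comparisons share the B16-M arrays. Tests were made with limma, with p-values adjusted by Benjamini and Hochberg across all 24317 features tested, 14139 with a gene symbol and 10178 without one, and a threshold of 0.05. All of them are called genes here. By this test 2 of the 9 members tested were higher in B16-D, where 3.6% of all genes tested were called in either direction. The count was 2 of 9 in B16-D-733 (5.57% of all genes), 1 of 9 in B16-D-735 (5.03%) and 2 of 9 in B16-D-739 (3.71%), all higher. The median change of the 9 members was 0.29 on the log2 scale in B16-D, 0.18 in B16-D-733, 0.18 in B16-D-735 and 0.04 in B16-D-739, while that of all genes in B16-D was -0.04.

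**Figure D2:**
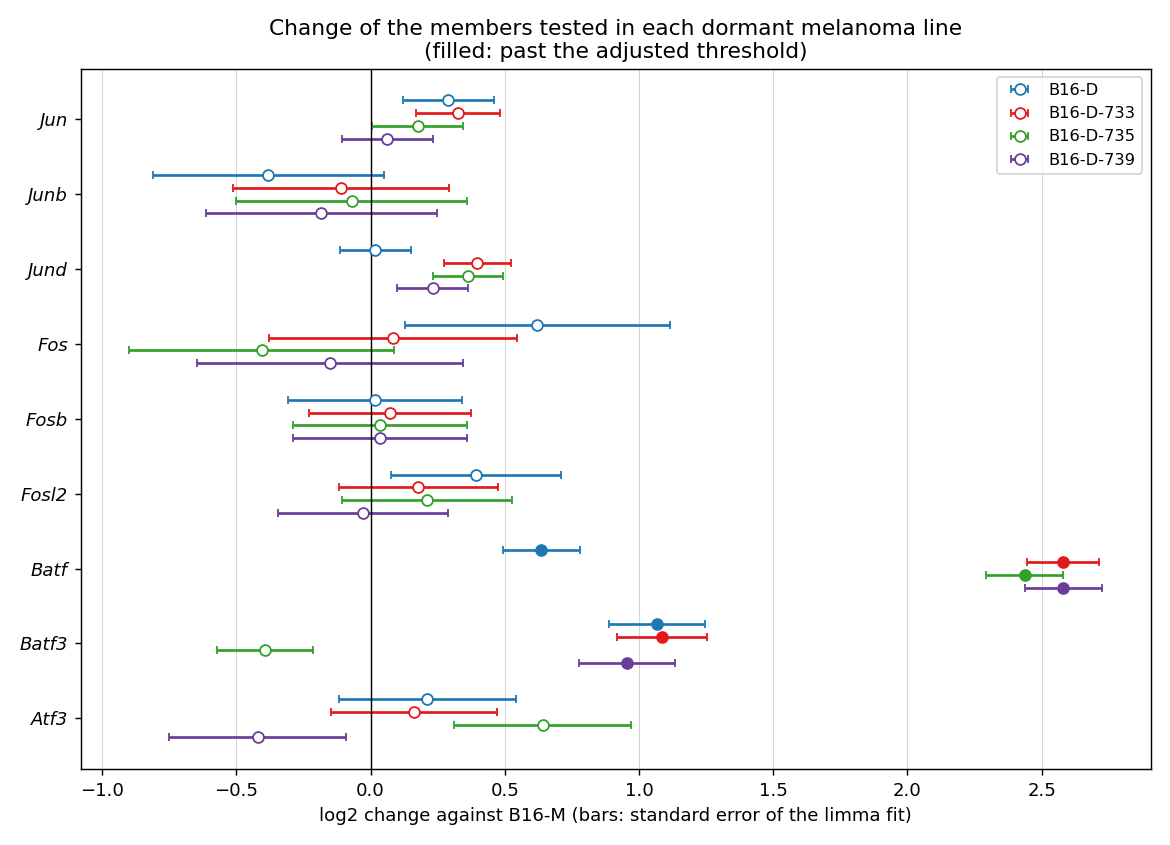
Change of the 9 tested members in each dormant melanoma line against B16-M (log2, bars are the standard error of the limma fit), filled where the adjusted p was under 0.05. *Batf* is filled in all 4 lines, near 2.5 in the 3 numbered lines and at 0.64 in B16-D, and *Batf3* is filled in 3 lines and lies at -0.39 in B16-D-735.

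Among the Jun proteins, *Jun* encodes the founding partner of AP-1 dimers and it passed no test between melanoma lines. Line means on the log2 scale ran from 3.03 in B16-M to 3.36 in B16-D-733, a range of 0.33, and the arrays of every dormant line overlapped those of B16-M. *Jund*, the Jun protein that most cells keep at a steady level, read 3.79, 3.80 and 3.88 on the B16-M arrays and 3.81, 3.70 and 4.01 on the B16-D arrays. It read 4.49, 4.09, 4.15 and 4.16 in B16-D-733, 4.11, 4.08 and 4.38 in B16-D-735, and 4.18, 3.99 and 4.0 in B16-D-739. Every array of the 3 numbered lines was above every B16-M array, by a small margin. The differences from B16-M were 0.40 ± 0.12 (log2, SE) in B16-D-733 (limma, adjusted p = 0.0883), 0.36 ± 0.13 in B16-D-735 (adjusted p = 0.162) and 0.23 ± 0.13 in B16-D-739 (adjusted p = 0.512), and none passed the test. With the mean of all probes of a gene in place of the brightest one, the difference in B16-D-735 was 0.44 and passed (limma, adjusted p = 0.0481). A second *Jund* probe had line means of 3.37 in B16-M, 3.51 in B16-D, 3.75 in B16-D-733, 3.88 in B16-D-735 and 3.77 in B16-D-739.

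*Junb*, whose product often restrains the activity of Jun, varied more between slides than between lines. Its line means lay between 1.94 in B16-D and 2.32 in B16-M. On the 6 melanoma arrays of slide 1 the level was 1.39 to 2.04, and on the 10 arrays of slides 2 and 3 it was 2.36 to 2.91, so that the slides did not overlap. The lowest array of *Junb* was on slide 1 in 5 of 5 melanoma lines, and the same held for *Fosb*. The change of *Junb* in B16-D was -0.38 ± 0.43 (log2, SE, limma adjusted p = 0.722).

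Among the Fos proteins, *Fos*, an immediate early gene that cells switch on within minutes of a stimulus, varied most from array to array. It read -0.84, -1.68 and -1.54 in B16-M, -0.07, -1.14 and -0.99 in B16-D, and -0.91, -1.45, -1.31 and -1.40 in B16-D-733. It read -0.59, -2.15 and -2.52 in B16-D-735 and -0.60, -2.10 and -1.80 in B16-D-739. In each line the first value, from the array numbered 0 in its title, was the highest, and all lines overlapped. The differences from B16-M ran from -0.41 ± 0.49 in B16-D-735 to 0.62 ± 0.49 in B16-D (log2, SE), with adjusted p from limma of 0.858 and 0.599. *Fosl2*, a Fos relative without the strong activating part of Fos, also had replicate 0 as its highest array in 5 of 5 melanoma lines, and its differences from B16-M lay between -0.03 and 0.39.

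*Fosb* had line means between -3.45 and -3.38, the narrowest range of the members measured in melanoma (0.07), and none of its changes passed the test. *Fosl1*, a Fos relative often high in invasive melanoma cells, gave signals between -7.39 and -6.23 on the melanoma arrays used, which were not well above background. Its difference between melanoma lines therefore could not be measured.

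**Figure D3:**
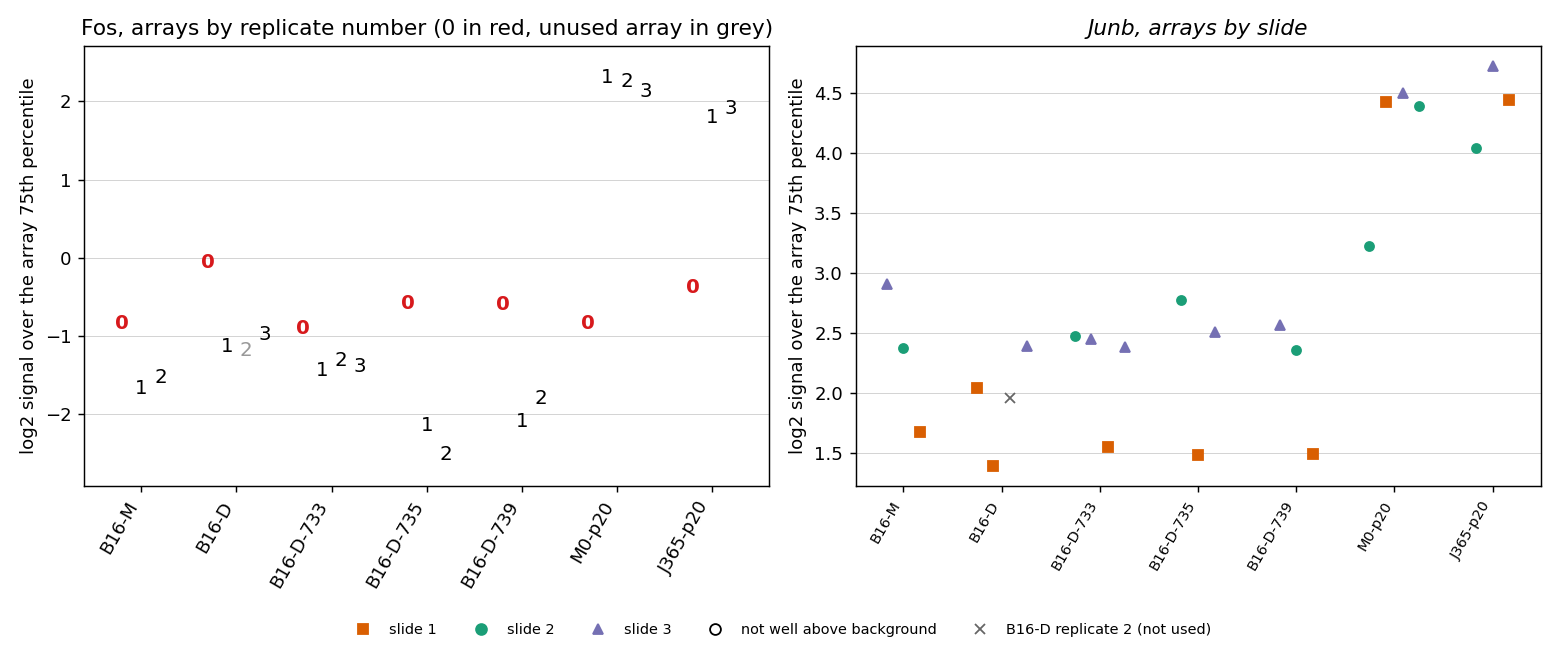
Left, level of *Fos* on each array (log2 signal over the array's 75th percentile), each array drawn as its replicate number, with 0 in red and the unused array in grey. Right, level of *Junb* with the slide as shape and colour. The red 0 is the highest *Fos* array in all 5 melanoma lines and the lowest in both leukemia lines, and the slide 1 arrays are the lowest *Junb* arrays in every melanoma line.

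*Batf* had the widest range of line means among the members (2.58 on the log2 scale). Its level was -2.26, -2.35 and -2.09 on the B16-M arrays and -1.62, -1.52 and -1.65 on the B16-D arrays. It was 0.12, 0.34, 0.63 and 0.30 in B16-D-733, 0.11, 0.27 and 0.23 in B16-D-735, and 0.16, 0.28 and 0.60 in B16-D-739. The lines formed 3 levels that did not overlap, with B16-M lowest, B16-D next and the 3 numbered lines together at the top.

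Against B16-M, *Batf* was 5.98-fold higher in B16-D-733 (2.58 ± 0.14 log2, SE, limma adjusted p = 8.03e-08). It was 5.41-fold higher in B16-D-735 (2.44 ± 0.14, limma adjusted p = 3.45e-07) and 5.98-fold higher in B16-D-739 (2.58 ± 0.14, limma adjusted p = 2.41e-07). In B16-D the rise was 1.55-fold (0.64 ± 0.14, limma adjusted p = 0.029). Within single slides the difference from B16-M was 0.52 and 0.61 for B16-D, 2.47 to 2.72 for B16-D-733, 2.36 to 2.49 for B16-D-735 and 2.42 to 2.70 for B16-D-739 (log2). Leaving out 1 array at a time kept the calls of the 3 numbered lines. The call in B16-D was lost without B16-M replicate 0 (0.63, adjusted p = 0.071), B16-M replicate 1 (0.58, 0.128), B16-D replicate 1 (0.60, 0.105) or B16-D replicate 3 (0.66, 0.0575), with no filter on dim probes (limma, adjusted p = 0.0837) and in a fit of the 2 lines alone (limma, adjusted p = 0.227). On melanoma arrays without a date in the title, a setting added after the data had been seen that leaves B16-D and B16-D-733 with 1 array each, assumed to vary like those of the other lines, *Batf* differed from B16-M by 0.62 in B16-D (limma, adjusted p = 0.15) and by 2.36 in B16-D-733 (limma, adjusted p = 0.00175).

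The numbered lines also differed from B16-D. *Batf* was the only member higher than in B16-D in B16-D-733 (3.85-fold, 1.94 ± 0.14 log2, SE, limma adjusted p = 1.01e-05), 1 of 9 members against 0.481% of all genes. On the dated arrays alone this difference was 2.01 (limma, adjusted p = 0.0414) and on the undated ones 1.74 (limma, adjusted p = 0.0766). In B16-D-739 the difference was 1.94 ± 0.14 (limma, adjusted p = 5.2e-05), 1 of 9 members against 0.308% of all genes, and this call was lost in a fit of the 2 lines alone (adjusted p = 0.0836). In B16-D-735 it was 1.80 ± 0.14 (limma, adjusted p = 6.28e-06), where 2 of 9 members were called, *Batf* higher and *Batf3* lower, against 8% of all genes. *Fos* was called there too with the replicate number as a block (-0.98, limma adjusted p = 0.0422). Among the 3 numbered lines the differences in *Batf* were -0.14, 0.00 and -0.15 with standard errors of 0.14, 0.14 and 0.14, and their arrays overlapped.

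*Batf3* followed another order. Its level was -1.43, -1.32 and -0.97 in B16-M, -0.25, 0.02 and -0.29 in B16-D, and -0.25, -0.32, 0.03 and -0.07 in B16-D-733. It was -1.89, -1.44 and -1.58 in B16-D-735 and -0.46, -0.44 and 0.04 in B16-D-739. B16-D, B16-D-733 and B16-D-739 overlapped one another and lay above B16-M. B16-D-735 lay below all of these lines, but its highest array (-1.437) was only just under the lowest of B16-M (-1.43). Against B16-M, *Batf3* was 2.10-fold higher in B16-D (1.07 ± 0.18 log2, SE, limma adjusted p = 0.00479), 2.12-fold higher in B16-D-733 (1.09 ± 0.17, adjusted p = 0.00152) and 1.94-fold higher in B16-D-739 (0.95 ± 0.18, adjusted p = 0.0079). In B16-D-735 the difference from B16-M was -0.39 ± 0.18 and did not pass (limma, adjusted p = 0.295).

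The direct comparisons of B16-D-735 tested that contrast. *Batf3* was 2.75-fold lower in B16-D-735 than in B16-D (-1.46 ± 0.18 log2, SE, limma adjusted p = 0.000227). It was 2.79-fold lower than in B16-D-733 (-1.48 ± 0.17, limma adjusted p = 0.000118), the only member called of 9 against 8.56% of all genes, and 2.55-fold lower than in B16-D-739 (-1.35 ± 0.18, limma adjusted p = 0.000482), the only one of 9 against 6.86%. Within slides these differences were -1.32 and -1.29 against B16-D, -1.64 to -1.38 against B16-D-733 and -1.47 to -1.12 against B16-D-739. No member was called between B16-D-739 and B16-D-733, by adjusted or unadjusted p from limma, where 0.259% of all genes were called. Every *Batf3* call in melanoma held with each array left out in turn, and those of B16-D and B16-D-739 against B16-M were lost in a fit of the 2 lines alone (limma, adjusted p = 0.13 and 0.102). On the undated arrays *Batf3* was not called in B16-D (0.99, limma adjusted p = 0.117) or B16-D-733 (0.99, adjusted p = 0.218) against B16-M, nor in B16-D-735 against B16-D-733 (-1.38, adjusted p = 0.0664). For both genes the highest array was on slide 1 in 5 of 5 melanoma lines, and B16-D holds 2 arrays of that slide.

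**Figure D4:**
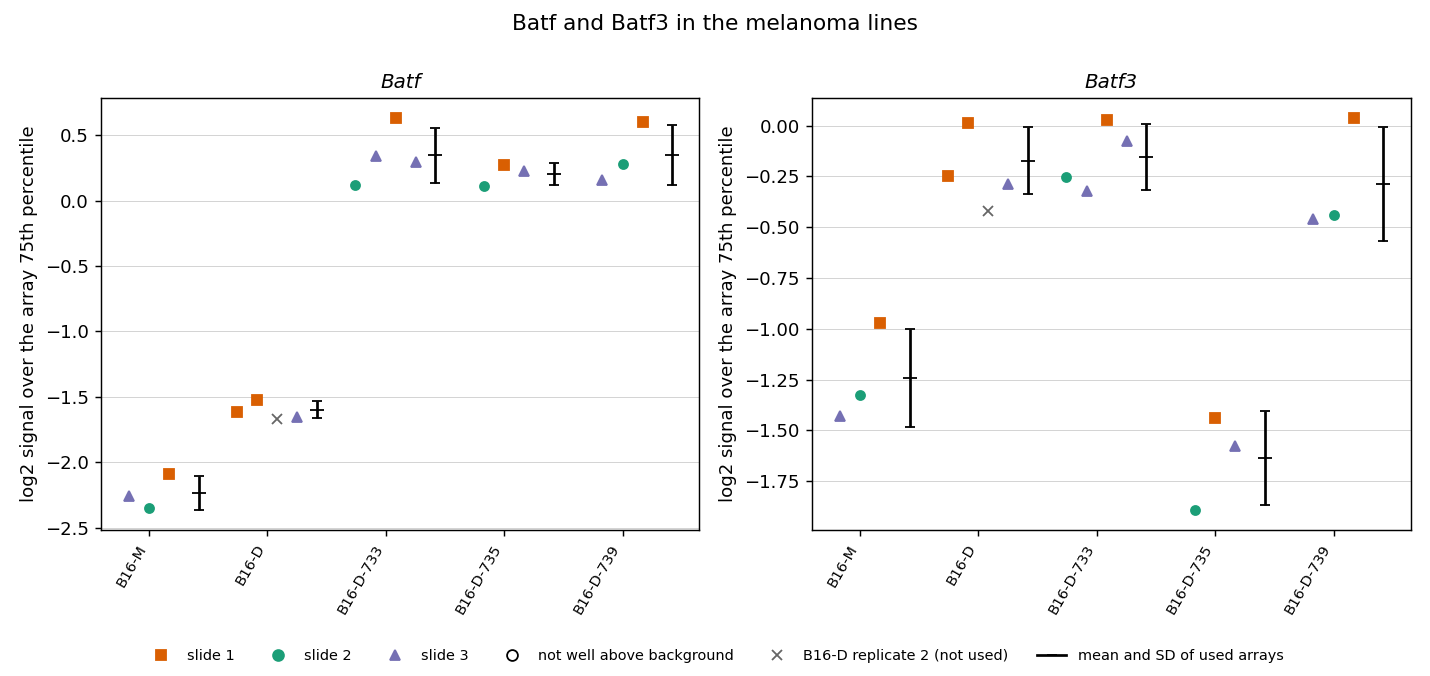
*Batf* and *Batf3* on each melanoma array (log2 signal over the array's 75th percentile, each panel with its own axis), with the slide as shape and colour, the unused array as a cross, and the mean and SD of the arrays used. *Batf* lies at 3 separate levels, while for *Batf3* B16-D-735 lies just under B16-M and well below B16-D, B16-D-733 and B16-D-739.

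Because Batf and Batf3 are best known from blood cells, other cells' markers were read beside them. The summed level of the 8 hematopoietic markers was -1.28 to -1.25 on the B16-M arrays and lower in the dormant lines, -2.66 to -2.03 in B16-D and -2.26 to -1.35 over the 3 numbered lines, where *Ptprc* was above background on no array. Of the 8 fibroblast markers, *Pdgfrb* was above background on no B16-M array and was at least 8.19-fold higher in B16-D, 15.5-fold in B16-D-733, 9.61-fold in B16-D-735 and 12.1-fold in B16-D-739 (limma, adjusted p of 4.8e-05 or less). *Dcn*, a defining fibroblast gene, was above background in B16-D-735 and on no array of the other melanoma lines, and *Thy1* on none of the melanoma arrays used. *Lum* was above background on at least 1 B16-D-733 array and on none of the other melanoma lines. Of the 6 fibroblast markers tested, 1 was called higher than in B16-M and none lower in B16-D (16.7%, against 3.6% of all genes). The same counts held in B16-D-733 (16.7%, against 5.57%). In B16-D-735 2 were higher and none lower (33.3%, against 5.03%), and in B16-D-739 1 was higher and 1 lower (33.3%, against 3.71%). The summed fibroblast level was 4.57 to 4.83 in B16-M and 4.46 to 5.30 over the dormant lines. Of the 8 neural and glial markers 6 were tested, and only *Mbp* was called in B16-D-733 (2.14 higher, limma adjusted p = 0.0038). That was 16.7%, against 5.57% of all genes, and none was called in the other dormant lines. The part of all these markers in the results for *Batf* and *Batf3* was not tested.

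*Atf3* varied between the lines without passing the test. It read -1.37, -0.83 and -0.81 in B16-M, 0.06, -1.12 and -1.31 in B16-D, -0.36, -1.17, -0.71 and -1.12 in B16-D-733, -0.42, -0.21 and -0.45 in B16-D-735, and -1.06, -1.71 and -1.49 in B16-D-739. All B16-D-735 arrays were above those of B16-M and of B16-D-739, and the other lines overlapped. B16-D-735 exceeded B16-D-739 by 1.06 ± 0.33 (log2, SE, limma adjusted p = 0.0787) and B16-M by 0.64 ± 0.33 (adjusted p = 0.379). The first of these was called on the undated arrays (1.06, limma adjusted p = 0.0314).

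The genes whose levels were most like those of a member over the 16 melanoma arrays were looked up for the 3 members with the widest range of line means, among 11894 genes above background on all these arrays. For *Batf* these were *Kcnn4* (Pearson r = 0.958), *Gstk1* (0.956) and *Cyfip2* (0.941). For *Batf3* they were *Ppp1r26* (0.965), *Ddx39b* (0.961) and *Jam3* (0.960), and for *Atf3* they were *Klf6* (0.896), *Saraf* (0.889) and *Dusp8* (0.865). The arrays come from only 5 lines and share slides, so these values describe the arrays and carry no test.

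In the leukemia model the question was the same, and no member passed it. None of the 8 members tested differed between J365-p20 and M0-p20 by adjusted or unadjusted p from limma, where 1.07% of all genes were called. *Batf* read 1.85, 1.84, 1.51 and 1.29 in M0-p20 and 2.10, 1.77 and 1.99 in J365-p20. The lines overlapped, with a difference of 0.33 ± 0.20 (log2, SE, limma adjusted p = 0.926). The other 7 members differed by -0.39 (*Fosl1*) to 0.29 (*Jund*), and all of them overlapped too. *Batf3* and *Atf3* had signals between -7.27 and -5.11, not well above background in either line.

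Here too 1 array of each line stood apart. *Fos* read -0.84, 2.31, 2.26 and 2.12 on the M0-p20 arrays and -0.39, 1.79 and 1.91 on the J365-p20 arrays. Replicate 0 was the lowest array in 2 of 2 leukemia lines for *Jun*, *Junb*, *Jund*, *Fos*, *Fosb*, *Fosl1* and *Fosl2*, while in melanoma replicate 0 was the highest array for *Fos* and *Fosl2*. Without replicate 0 of both leukemia lines, a setting added after the data had been seen, still no member was called between J365-p20 and M0-p20.

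Whether a member's change with dormancy differed between the models was tested as the difference of B16-D minus B16-M and J365-p20 minus M0-p20. *Fosl1* was at background in both melanoma lines and *Batf3* and *Atf3* in both leukemia lines, so that for them this difference was not measurable. None of the 10 members passed (limma), counting *Fosl1*, *Batf3* and *Atf3*, where 2.28% of all genes did, and 1 had an unadjusted p under 0.05. This was *Batf3*, with 1.44 ± 0.46 (log2, SE, adjusted p = 0.147), whose leukemia part rests on signals not above background. For *Batf* the difference was 0.31 ± 0.23 (limma, adjusted p = 0.874), so its rise in B16-D was not shown to be particular to melanoma. The numbered lines, where *Batf* rose more than in B16-D, were not set against leukemia in this way.

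The levels of the members differed between the parental lines of the 2 models. All 10 members passed the test between B16-M and M0-p20, where 56.2% of all genes were called and the median of all genes was -0.19. *Jun*, *Batf3* and *Atf3* were higher in B16-M, and the other 7 were higher in M0-p20. Melanoma and leukemia lines also differ in their model, which cannot be told apart from the cell type, and their mouse of origin is not given.

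*Jun* read 2.74, 2.97 and 3.38 in B16-M against 0.76, 2.03, 1.80 and 1.67 in M0-p20, and was 2.76-fold higher in B16-M (1.47 ± 0.25 log2, SE, limma adjusted p = 5.14e-05). *Junb* read 2.91, 2.38 and 1.68 against 3.23, 4.43, 4.51 and 4.39, and was 3.52-fold lower in B16-M (limma, adjusted p = 0.000698). *Jund* was 2.97-fold lower in B16-M (limma, adjusted p = 2.51e-06). The arrays of the 2 lines did not overlap for any Jun gene, and *Jun* ran opposite to *Junb* and *Jund*.

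Of the Fos genes, *Fosl2* was 7.52-fold lower in B16-M (limma, adjusted p = 4.58e-07) and *Fosl1* was at least 48.6-fold higher in M0-p20, since it was not above background in B16-M. *Fos* was 7.02-fold lower in B16-M (-2.81 ± 0.70 log2, SE, limma adjusted p = 0.00198), although M0-p20 replicate 0 lay at the level of the highest B16-M array. *Fosb* was 1.86-fold lower in B16-M (limma, adjusted p = 0.0194) with overlapping arrays. Its call was lost without B16-M replicate 0 (-0.79, adjusted p = 0.0748), without B16-M replicate 2 (-0.77, adjusted p = 0.0785), with the mean of all probes (-0.53, adjusted p = 0.0816) and with B16-D replicate 2 in the fit (adjusted p = 0.0598).

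Of the remaining members, *Batf* was 14.5-fold lower in B16-M than in M0-p20 (-3.86 ± 0.16 log2, SE, limma adjusted p = 4.6e-14). Its levels in the numbered melanoma lines lay between those of B16-M and M0-p20. *Batf3* was at least 24.3-fold and *Atf3* at least 53-fold higher in B16-M (limma, adjusted p = 1.47e-10 and 4.23e-13), because neither was above background in M0-p20. These bounds set the mean of the bright line against the mean of, for each array of the other, the higher of the lowest signal well above background and the probe's own signal. They depend on the background correction. The fitted differences were 4.65 for *Batf3*, 5.83 for *Atf3* and -5.77 for *Fosl1* (log2), and with normexp they were 1.84, 2.31 and -2.33 (limma, adjusted p = 7.71e-10, 3.36e-08 and 2.11e-10).

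Genes that work with AP-1 were read from 4 lists, with the genes a member pairs with first. Of 27 other bZIP genes, 21 were tested in melanoma. *Batf2*, the third Batf gene, rose 1.86-fold in B16-D-733 (0.90 ± 0.15 log2, SE, limma adjusted p = 0.00302) and 2.11-fold in B16-D-735 (1.08 ± 0.16, adjusted p = 0.00124), and no other partner passed against B16-M in any dormant line. Both calls were lost with normexp background correction (0.40 and 0.43, adjusted p = 0.0737 and 0.0699) and with B16-D replicate 2 in the fit (adjusted p = 0.261 and 0.202), and that in B16-D-733 on the undated arrays (adjusted p = 0.0613). *Jdp2*, which lies between *Fos* and *Batf* and represses AP-1, had line means of 1.93 in B16-M, 1.85 in B16-D, 1.93 in B16-D-733, 1.47 in B16-D-735 and 1.85 in B16-D-739 and was not called in melanoma. Between B16-M and M0-p20, 8 of 22 partners were higher and 7 lower (68.2%, against 56.2% of all genes), *Maf* at least 76.4-fold higher in B16-M and *Nfe2*, a gene of blood cell differentiation, at least 5200-fold higher in M0-p20. With normexp the fitted difference was 2.84 for *Maf* in place of 6.47 and -8.72 for *Nfe2* in place of -12.72 (log2).

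Of 25 kinases and regulators of AP-1, 23 were tested in melanoma, and their median changes against B16-M lay between -0.09 and 0.08. None passed in B16-D, B16-D-733 or B16-D-739. In B16-D-735 *Rps6ka2*, a kinase below ERK, was 2.26-fold lower (-1.18 ± 0.20 log2, SE, limma adjusted p = 0.00385), a call lost in a fit of the 2 lines alone (adjusted p = 0.0752). None of 23 passed between J365-p20 and M0-p20.

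Of 30 other immediate early genes, 26 were tested in melanoma. In B16-D 3 of them (11.5%, against 3.6% of all genes) rose and none fell: *Trib1* (0.98 ± 0.17 log2, SE, limma adjusted p = 0.00648), *Myc*, a driver of growth (1.12 ± 0.22, adjusted p = 0.0148), and *Rhob*, a small GTPase (1.02 ± 0.22, adjusted p = 0.0217). The same genes passed in B16-D-739 (0.70, 0.92 and 0.99) and, with *Sgk1* (1.06), in B16-D-733 (0.74, 0.94 and 0.89), and none of 26 did in B16-D-735. Of all genes 3.71%, 5.57% and 5.03% passed in these lines. Compared directly, 7 of 26 were lower in B16-D-735 than in B16-D and none higher (26.9%, against 8% of all genes). Against B16-D-733 2 were lower and none higher (7.69%, against 8.56%). Against B16-D-739 2 were lower and 1 higher (11.5%, against 6.86%). The call of *Trib1* in B16-D held with each array left out. That of *Myc* in B16-D was lost without B16-M replicate 1 (adjusted p = 0.0748), B16-M replicate 2 (0.0578) or B16-D replicate 1 (0.0697), and that of *Rhob* without B16-M replicate 0 (0.0723) or replicate 1 (0.0855). In B16-D-733 and B16-D-739 each of these calls was lost without B16-M replicate 1, with adjusted p between 0.0812 and 0.178. Without B16-M replicate 0 or 2, B16-D-733 replicate 0 or 2, or any B16-D-739 array, at least 1 of them was lost as well (adjusted p from 0.0506 to 0.177). In a fit of the 2 lines alone, none of *Trib1*, *Myc* and *Rhob* was called in B16-D (limma, adjusted p = 0.216, 0.108 and 0.349) or in B16-D-739 (0.174, 0.056 and 0.108), nor *Trib1*, *Myc* and *Sgk1* in B16-D-733 (0.0616, 0.0589 and 0.0927). On the undated arrays *Myc* was called in none of these lines (adjusted p = 0.0722 to 0.154), *Trib1* neither in B16-D-733 (0.538) nor in B16-D-739 (0.1), and *Rhob* not in B16-D-733 (0.143).

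Of 35 genes known as AP-1 targets, 20 were tested in melanoma. In B16-D 2 rose and none fell. These were *S100a6*, a calcium-binding protein (16.3-fold, 4.02 ± 0.78 log2, SE, limma adjusted p = 0.0125), whose level in B16-D had an SD of 1.91 over 3 arrays, and *Hmga2*, a chromatin protein (3.27-fold, 1.71 ± 0.27, adjusted p = 0.00301). Both rose in B16-D-733 too (4.44 and 1.34), where 5 genes rose and none fell, among them *Spp1*, the secreted protein osteopontin (1.42 ± 0.24, limma adjusted p = 0.00293). In a fit of the 2 lines alone, neither call in B16-D held (adjusted p = 0.291 and 0.0911). The change of *S100a6* in B16-D was 2.92 without B16-D replicate 0, at most 4.57 with another array left out, and 6.22 on the undated arrays, where B16-D is replicate 0 alone. On these arrays *Hmga2* (1.74, limma adjusted p = 0.0569) and *Spp1* (1.11, adjusted p = 0.261) were not called in B16-D-733.

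In B16-D-739 3 targets rose and none fell, with *S100a6* (3.39 ± 0.78 log2, SE, limma adjusted p = 0.0296) and *Hmga2* (1.26 ± 0.27, adjusted p = 0.0174) among them. Both calls were lost without B16-M replicate 1 (adjusted p = 0.0753 and 0.0921), B16-D-739 replicate 0 (0.113 and 0.0833) or B16-D-739 replicate 2 (0.0964 and 0.0702). That of *S100a6* was also lost without B16-M replicate 0 (0.107) or B16-D-739 replicate 1 (0.0707), with normexp (2.50, 0.0825) and with no filter on dim probes (0.0509).

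In B16-D-735 5 targets rose and 2 fell. *Plau*, the urokinase that cuts plasminogen, was at least 21.8-fold higher (limma, adjusted p = 0.000546), since it was above background on no B16-M array. Its fitted difference was 4.65 (log2), 2.39 with the mean of all probes and 1.53 with normexp (adjusted p = 0.00412). *Gja1*, the gap junction protein connexin, rose 4.37-fold (2.13 ± 0.23 log2, SE, limma adjusted p = 8.23e-05) and *Spp1* rose 2.93-fold (1.55 ± 0.26, adjusted p = 0.0026), a call lost in a fit of the 2 lines alone (0.059). *Thbs1*, the matrix protein thrombospondin, was 2.45-fold lower (-1.30 ± 0.22, adjusted p = 0.00364). Median changes of the 20 targets against B16-M lay between 0.19 and 0.31, and 10%, 25%, 35% and 15% of them were called in B16-D, B16-D-733, B16-D-735 and B16-D-739, against 3.6%, 5.57%, 5.03% and 3.71% of all genes. In leukemia *Thbs1* was the only one of 21 targets called (4.76%, against 1.07% of all genes), at least 11.1-fold lower in J365-p20 (limma, adjusted p = 0.0226). It was above background on 3 of 4 M0-p20 arrays and on none of J365-p20, so it falls outside the rule for named genes and was named after its values were seen. That call was lost without any single J365-p20 replicate (adjusted p = 0.102 to 0.154), with normexp (-0.96, adjusted p = 0.293), and with quantile scaling, the mean of all probes, the slide block or the replicate block (adjusted p = 0.0521 to 0.0702).

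**Figure D5:**
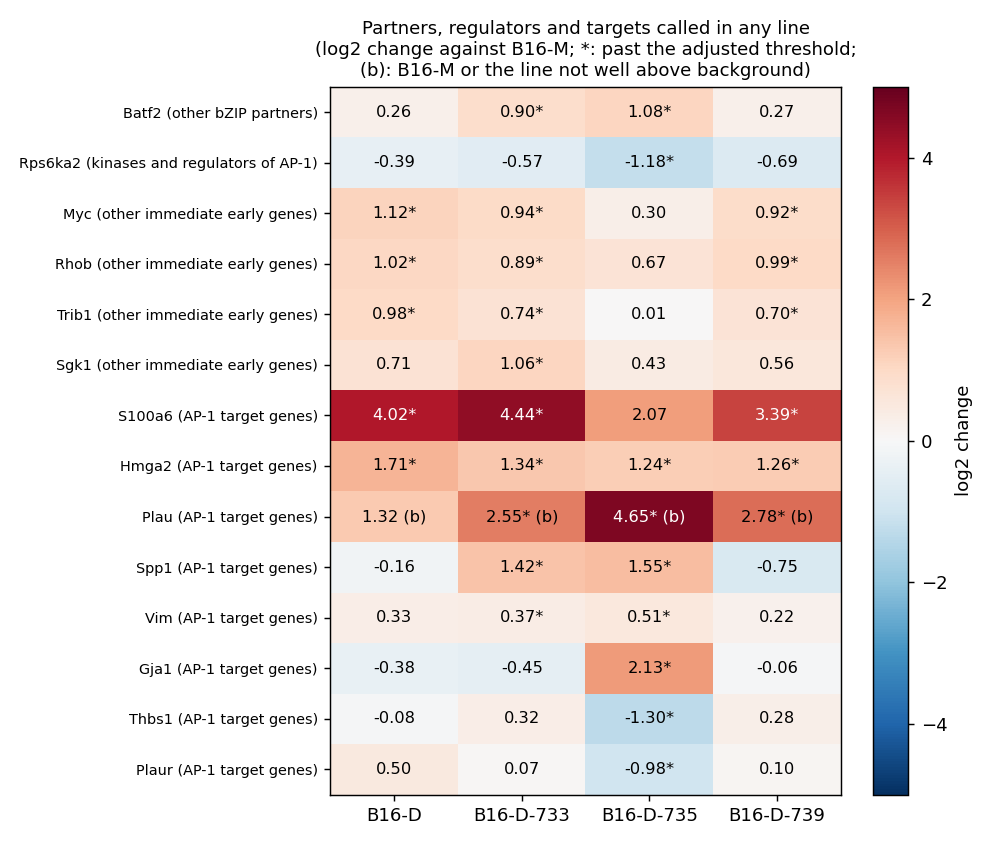
Change against B16-M (log2) in the 4 dormant melanoma lines for each partner, regulator, immediate early gene and target called in at least 1 of them. An asterisk marks an adjusted p under 0.05 and (b) a value where B16-M or the line was not above background on any array. *Trib1*, *Myc*, *Rhob* and *S100a6* carry an asterisk in B16-D, B16-D-733 and B16-D-739 and not in B16-D-735, and *Gja1*, *Thbs1* and *Rps6ka2* in B16-D-735 alone.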

How the data were processed

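Total RNA of 7 cultured mouse lines was measured on 24 one-colour Cy3 arrays, 8 on each of 3 slides with 1 scan each. The deposited values are spot intensities that the authors extracted with Agilent Feature Extraction 10.7.3.1, background-corrected by that software and not scaled between arrays. The deposited series table holds the same values. The files' other marks are 0 or 1 labels of the scanner software.

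Control spots and 2468 outlier spots were left out, and no spot was saturated. Spots of a probe were averaged, and log2 intensities were set against the 75th percentile of their array. Through RefSeq accessions, 32994 of 56605 probes were matched to 22911 symbols, of which 7899 had several probes and took the probe of highest mean level. Genes well above background on at least 3 arrays were tested by two-sided limma tests (limma 3.58.1, R 4.3.3) that used 16 melanoma arrays (24317 genes, residual degrees of freedom 11), 7 leukemia arrays (22975 genes, 5) or all 23 arrays (26762 genes, 16), with Benjamini-Hochberg adjustment over all genes. Genes here are features: 14139, 13217 and 15290 of them have a symbol and the others are probes or transcripts without one. The number of arrays limits the precision. A line at background on every array gave a bound in place of a fold. The code was tested on simulated data with 200 changed genes.

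Replicate numbers of the titles were no term of the fits. Deviations of same-numbered arrays correlated at 0.57 to 0.91 for B16-M and B16-D-733 and 0.76 to 0.92 for B16-M and B16-D-739. For B16-D-733 and B16-D-739 they correlated at 0.70 to 0.92. Same-numbered arrays of B16-M and B16-D-739 also share a slide, and replicate 2 of B16-D-733 lies on slide 1 with theirs. For B16-M and B16-D-739 these values therefore cannot tell pairing by number from sharing a slide. Same-numbered arrays of B16-M and B16-D-735 share no slide. They correlated at 0.85 for replicate 0, where neither array is on slide 1. For replicates 1 and 2, where 1 of the arrays is on slide 1, the values were -0.55 and -0.57. The source of these correlations was not tested. Alternatives were other background corrections, scalings, filters, probes, arrays and blocks, of which 3 were added after the data had been seen. Normexp used the median in place of the mean signal, with an offset of 50. The members and lists were chosen with earlier results of these data known. All members are named, and of each list up to 4 called genes with the largest change in a comparison, well above background on every array of 1 line. Figures were drawn with matplotlib 3.10.9 in Python 3.11.15.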

Additional observations from a re-analysis of the deposited data

Results flagged for a closer look

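B16-D-733 and M0-p20, the lines with 4 arrays used, gave 20 sets of 4 values, 1 for each member and line. In 7 of these sets, 1 array lay far from the other 3. Members on the same array are not independent of each other, so this count was not set against chance. In M0-p20, replicate 0 lay below the others for *Junb* (3.23), *Fos* (-0.84), *Fosb* (-3.01), *Fosl1* (-1.78) and *Fosl2* (0.66). In B16-D-733, replicate 2 lay below the others for *Junb* (1.54) and replicate 0 lay above them for *Jund* (4.49).

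The change of *Batf* against B16-M differed from that of B16-D by 1.94 in B16-D-733, 1.80 in B16-D-735 and 1.94 in B16-D-739 on the log2 scale. The change of *Batf3* in B16-D-735 differed by -1.46 from that in B16-D, by -1.48 from that in B16-D-733 and by -1.35 from that in B16-D-739. All of these passed the limma test of the difference.

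On B16-D replicate 2, the array outside the comparisons, *Fosl1* was marked well above background with a level of -4.08.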

How the results depend on the processing

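No direction of a called change reversed under the alternatives run. The number of members called stayed within 1.5 times of that reported in 232 repeats with 1 setting altered and moved further in 17. For single changes of members and listed genes, 1059 repeats left the call as it was, 111 lost it and 6 gained one. Levels were repeated with normexp and quantile scaling, and detection with the weaker mark. Of these repeats 57 stayed, for a level within its SD over arrays, and 90 moved further. For B16-D minus B16-M, 1 member was called with no filter on dim probes, 0 in a fit of the 2 lines alone, and 1 to 2 with each array left out. For B16-D-735 minus B16-M, 2 were called with the mean of all probes. In a fit of the 2 lines alone, 1 was called for B16-D-739 minus B16-M and 0 for B16-D-739 minus B16-D. For the difference of the dormancy changes between the models, 1 was called (*Batf3*) with normexp, and 0 to 1 with each array left out, 1 without M0-p20 replicate 1 or 2. On the undated arrays, 0 were called for B16-D minus B16-M, 1 for B16-D-733 minus B16-M, 0 for B16-D-733 minus B16-D, 0 for B16-D-735 minus B16-D-733 and 2 for B16-D-735 minus B16-D-739. The causes were not tested.

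Over all genes, counts moved more. For B16-D minus B16-M they ran from 86 (the 2 lines alone) to 1247 (slide block) around 876, for B16-D-735 minus B16-D from 312 to 2797 around 1946, and for B16-D-739 minus B16-D from 1 to 213 around 75. They ran from 380 to 2197 around 1355 for B16-D-733 minus B16-M, from 530 to 2154 around 1224 for B16-D-735 minus B16-M and from 462 to 1485 around 901 for B16-D-739 minus B16-M. Between the other melanoma lines they ran from 24 to 135 around 117 (B16-D-733 minus B16-D), from 390 to 3441 around 2081 (B16-D-735 minus B16-D-733), from 12 to 73 around 63 (B16-D-739 minus B16-D-733) and from 728 to 2929 around 1668 (B16-D-735 minus B16-D-739). For J365-p20 minus M0-p20 they ran from 103 to 268 around 245, for B16-M minus M0-p20 from 9146 to 17139 around 15038, and for the difference between the models from 185 to 830 around 610. With the replicate block, 2 members were called for B16-D minus B16-M, 2 for B16-D-733 minus B16-M, 1 for B16-D-735 minus B16-M, 2 for B16-D-739 minus B16-M and 3 for B16-D-735 minus B16-D, *Fos* being the third (-0.98, limma adjusted p = 0.0422). In the other pairs of lines, correlations of same-numbered arrays ran from -0.72 to 0.85.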
